A study of Mus musculus with 13 samples.

Results

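Lipogenesis, triglyceride and lipid droplet genes were followed through mouse liver tumours in which Yap1 had been knocked down. The group holds 36 genes, chosen by their role in making, storing, breaking down and exporting fat, and all 36 were present in the tables of the 13 libraries, among 23358 measured genes. They fall into 6 enzymes or helpers of fatty acid synthesis (Acly, Acaca, Acacb, Fasn, Me1, Thrsp), 2 transcription factors of that pathway (Srebf1, Mlxipl), 9 genes of triglyceride synthesis (Gpam, Agpat2, Lpin1, Lpin2, Lpin3, Mogat1, Mogat2, Dgat1, Dgat2), 6 of lipolysis (Pnpla2, Pnpla3, Lipe, Mgll, Abhd5, G0s2), 12 of droplet storage (Plin1 to Plin5, Cidea, Cideb, Cidec, Fitm1, Fitm2, Hsd17b11, Hsd17b13) and 1 of export (Mttp).

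The study asked how inhibiting Yap changes gene expression in hepatocellular carcinoma of engineered mice. All animals carried Mst1-/-; Mst2Flox/Flox on a mixed (C57BL/6; 129Sv) background and had received Adeno-Cre, an adenovirus carrying the Cre recombinase. Mst1 and Mst2 encode the kinases that hold Yap in check, so both groups lack this control, Mst1 from the germline and Mst2 in the liver cells that the virus reached. Once ultrasound had found tumours, mice were assigned at random to 9 days of intravenous lipid nanoparticles carrying siRNA against luciferase (siLuciferase-LNPs, the control, called siLuc here, 8 libraries) or against Yap (siYap-LNPs, called siYap, 5 libraries). The labels give neither the ages of the mice nor whether the libraries of a group came from separate mice, so p-values measure only the spread between these libraries, which may be technical in part.

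Hepatocytes build fatty acids from acetyl-CoA through acetyl-CoA carboxylase and fatty acid synthase, under the transcription factors encoded by Srebf1 and Mlxipl, and attach them stepwise to a glycerol backbone to make triglyceride. The triglyceride is stored in droplets that bud from the endoplasmic reticulum and are coated with perilipins and related proteins. It leaves the droplet by lipolysis, or leaves the cell on lipoproteins that microsomal triglyceride transfer protein, the product of Mttp, fills with lipid. Liver normally holds little droplet lipid, and its perilipins differ from the one that coats the large droplets of fat cells.

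Totals ran from 23637021 to 37043914 fragments per library, and the lowest were siYap 1 (23637021) and siYap 3 (25801886). Yap1 lay at 8.10 to 11.9 FPKM (fragments per kilobase of transcript, scaled for depth) in siLuc and at 2.22 to 4.17 in siYap, with a log2 fold change of -1.58 ± 0.17 (SE; adjusted p = 2.36e-05, edgeR). Stk4, the symbol for Mst1, was near 0 in both groups (0.0533 ± 0.0261 and 0.0440 ± 0.0194 FPKM). Stk3, the symbol for Mst2, was 6.12 ± 0.619 and 5.22 ± 1.32 FPKM (adjusted p = 0.145), a value for the whole gene that does not separate the floxed exons and so checks no deletion. The summed FPKM of 7 hepatocyte markers was 10215 to 18081 in siLuc and 7900 to 13950 in siYap (1 higher and 2 lower in the test), lowest in siYap 1. Stellate and fibroblast markers summed to 31.6 to 90.0 and 47.4 to 244 FPKM (2 of 6 higher), and siYap 1 held the 244. Cholangiocyte markers summed to 18.4 to 50.8 and 4.95 to 22.7 FPKM (2 of 5 lower), macrophage markers to 51.8 to 157 and 40.1 to 129 (3 of 7 lower), endothelial markers to 35.8 to 96.5 and 38.6 to 104 (1 of 5 higher), and erythroid markers to 3.05 to 25.9 and 7.18 to 15.5 (1 of 2 tested lower). Ribosomal Rn45s reads were highest in siYap 3 and siYap 1, at 1882 and 1160 CPM (counts scaled to equal depth) against 479 to 812 in the others. The part of these differences in the results that follow was not tested, and in tumour RNA fewer cells of a type and less RNA per cell cannot be told apart.

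Of the 36 genes, 34 passed the filter on low counts. In siYap, 13 of them rose (Acacb, Fasn, Lpin1, Lpin2, Dgat2, Pnpla2, Lipe, Mgll, Plin4, Plin5, Cideb, Hsd17b11, Mttp), 5 fell (Agpat2, Lpin3, Mogat2, Plin3, Hsd17b13) and 16 did not pass the test at an adjusted p under 0.05. Among all 15132 genes tested, 16.0% rose and 14.8% fell. The share of lipid genes that rose was therefore above the background, at 38.2%, and the share that fell was near it, at 14.7%. Since these genes were chosen with earlier results of these data known, the shares are a description. Their median log2 fold change was 0.59, against -0.0026 over all genes tested. In 5 of the lipid genes every siYap library lay above every siLuc library (Acacb, Fasn, Pnpla2, Plin4, Mttp; 5.57% of all genes), and in 2 every siYap library lay below (Agpat2, Hsd17b13; 5.66% of all genes). The plot of fold changes by role shows rises in 5 of the 6 roles, and falls in triglyceride synthesis and droplet storage. Without siYap 1 and siYap 3 together, a comparison chosen after the data were seen, 11 of the 13 rises and 1 of the 5 falls (Hsd17b13) still passed.

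**Figure D1:**
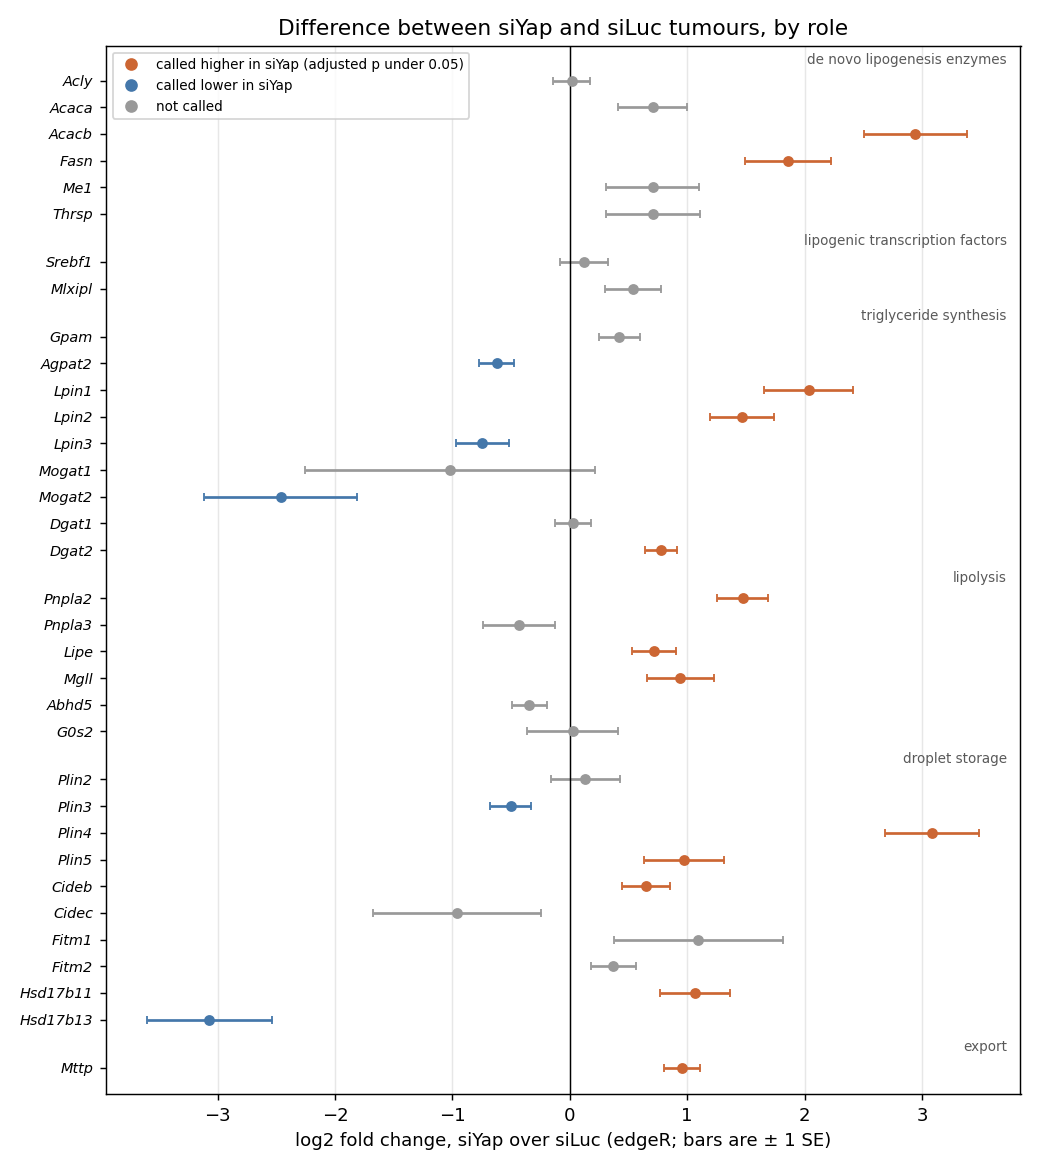
Log2 fold change of siYap over siLuc (horizontal axis, edgeR, bars ± 1 SE) for the 34 genes tested, grouped by role, with 13 called higher, 5 called lower and 16 not called at an adjusted p under 0.05. Plin4 and Acacb lie farthest to the right (3.08 and 2.94) and Hsd17b13 farthest to the left (-3.07).

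In fatty acid synthesis, 2 of the 6 genes rose, 0 fell, and the median log2 fold change was 0.71. As shares this was 33.3% and 0%, against 16.0% and 14.8% of all genes tested. Acacb encodes the acetyl-CoA carboxylase of the mitochondrial surface, whose product malonyl-CoA restrains fatty acid entry into mitochondria. Acacb ran from 0.348 to 1.66 FPKM in siLuc (median 0.955), and stood at 3.61, 6.40, 16.5, 6.32 and 2.63 in siYap 1 to 5. All siYap libraries were above all siLuc libraries. Acacb rose by a log2 fold change of 2.94 ± 0.44 (7.69-fold; adjusted p = 0.000318), and within the libraries whose file names share a code digit it was 3.21 (digit 6), 3.13 (digit 7) and 2.91 (digit 8, with 1 library in each group). Fasn, the fatty acid synthase that assembles palmitate, ran from 7.55 to 23.6 FPKM in siLuc (median 17.9) and stood at 29.3, 47.6, 148, 46.7 and 23.6 in siYap 1 to 5. The groups did not overlap, but siYap 5 lay only just above the highest siLuc library, and siYap 3 stood far above the rest. Fasn rose by a log2 fold change of 1.86 ± 0.37 (3.63-fold; adjusted p = 0.00210), and without siYap 3 it was 1.22 (adjusted p = 0.00444). 

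The other 4 genes of fatty acid synthesis did not pass the test, although with the file-code digit as a term Acaca and Thrsp did (adjusted p = 0.00311 and 0.0239). Acaca, the cytosolic acetyl-CoA carboxylase, was 30.4 ± 10.5 FPKM in siLuc and 49.3 ± 26.0 in siYap (adjusted p = 0.0783, and 0.0483 without siYap 1 or 0.0434 without siYap 5). Its ratio to Acacb, both per length, was 19.8 to 53.4 in siLuc and 5.46 to 10.8 in siYap, so Acaca remained the more abundant carboxylase transcript in all 13 libraries. Acly, which supplies cytosolic acetyl-CoA from citrate, had the same mean in both groups to 3 digits, 42.9 ± 7.44 and 42.9 ± 10.6 FPKM (adjusted p = 0.944). Me1, the malic enzyme that supplies NADPH, was 18.7 ± 9.90 and 30.2 ± 13.5 FPKM (adjusted p = 0.187). Thrsp, a lipogenic cofactor also called Spot 14, was 75.3 ± 36.4 and 124 ± 60.2 FPKM (adjusted p = 0.191). Me1 and Thrsp varied widely within siLuc, from 4.85 to 33.4 and from 23.7 to 130 FPKM.

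Neither transcription factor passed the test over all libraries. Srebf1, which encodes the sterol-regulated activator of lipogenic genes, was 31.6 ± 5.51 FPKM in siLuc and stood at 19.1, 26.9, 59.0, 41.2 and 21.6 in siYap 1 to 5 (adjusted p = 0.687). The siYap libraries thus lay on both sides of the siLuc range of 24.5 to 39.8. Mlxipl, which encodes the glucose-responsive factor ChREBP, was 13.4 ± 2.46 FPKM in siLuc and 19.1 ± 10.9 in siYap (adjusted p = 0.1001, and 0.0423 without siYap 5), and siYap 3, at 38.3, was the only siYap library above the siLuc range. Both transcription factors, Acaca, Acacb and Fasn were highest of the siYap libraries in siYap 3. Among 19 other genes of carbon supply and regulation of lipogenesis, 5 rose and 1 fell (26.3% and 5.26%, against 16.0% and 14.8% of all genes tested). Prkaa2, a catalytic subunit of the kinase AMPK, rose from 9.50 ± 2.69 to 17.1 ± 2.97 FPKM (adjusted p = 0.000882). Srebf2, the relative of Srebf1 that drives cholesterol synthesis, rose from 4.14 ± 0.952 to 7.95 ± 3.38 (adjusted p = 0.00353). Usf2 rose from 8.92 ± 0.508 to 11.5 ± 2.53 FPKM (adjusted p = 0.0164) while Usf1, its partner in a dimer that binds the E-box, fell from 16.1 ± 1.94 to 9.29 ± 2.098 (adjusted p = 0.000459).

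**Figure D2:**
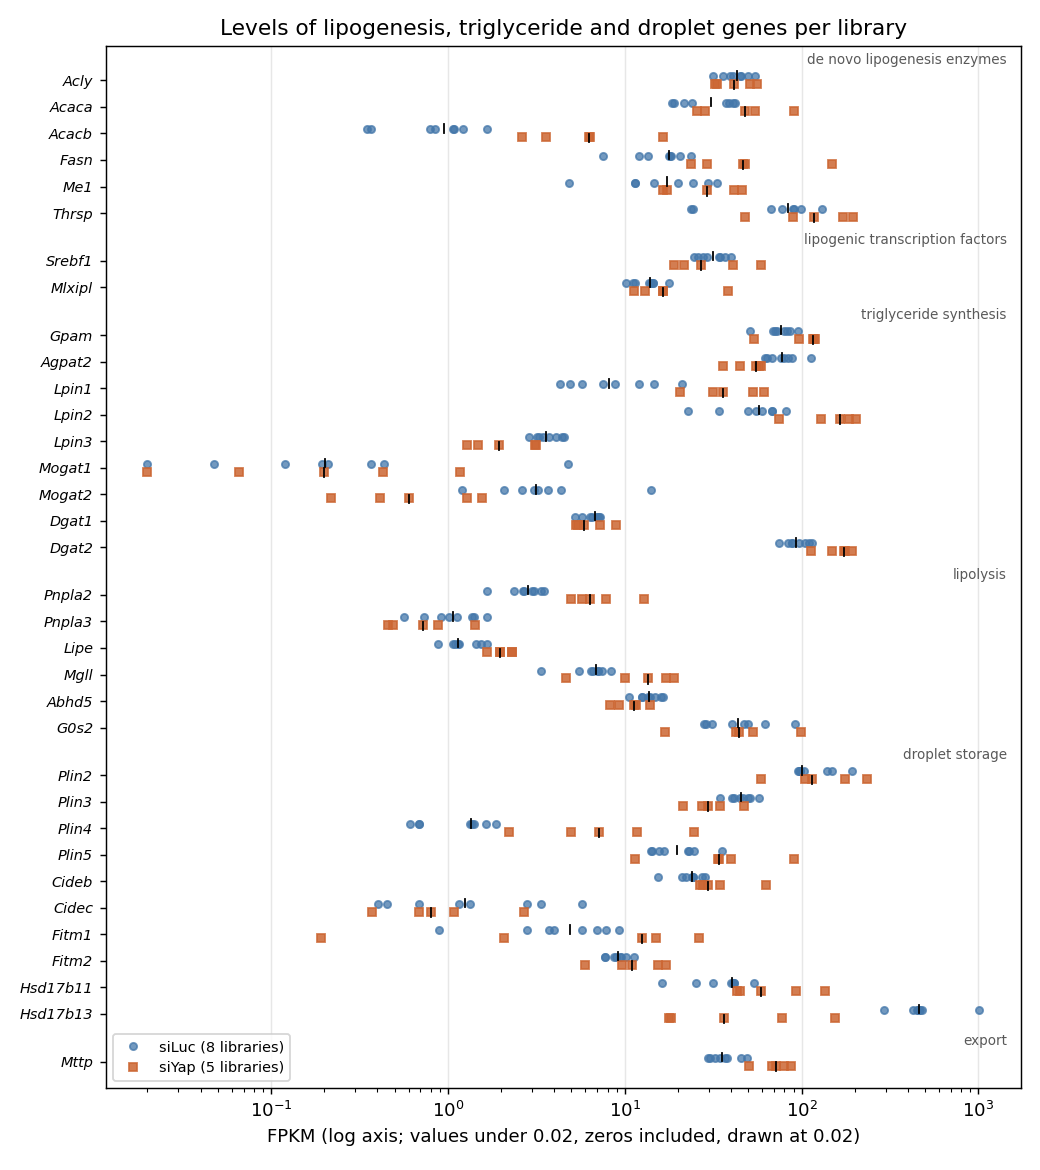
FPKM (log axis, values near 0 drawn at the left edge) of the 34 genes tested, grouped by role, with 1 circle per siLuc library (8), 1 square per siYap library (5) and a tick at each group's median. The groups do not overlap for Acacb, Fasn, Pnpla2, Plin4 and Mttp, where siYap lies to the right, and for Agpat2 and Hsd17b13, where it lies to the left.

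Triglyceride synthesis held changes in both directions, with 3 of 9 genes higher, 3 lower and a median log2 fold change of 0.02. Each direction thus held 33.3% of the genes, against 16.0% higher and 14.8% lower among all genes tested. The lipins convert phosphatidate to diacylglycerol, the step before the last. Lpin1 ran from 4.32 to 21.1 FPKM in siLuc (median 8.18) and stood at 20.7, 31.4, 61.3, 35.8 and 53.1 in siYap 1 to 5. Only siYap 1 lay within the siLuc range, just below siLuc 7. Lpin1 rose by 2.03 ± 0.38 on the log2 scale (4.10-fold; adjusted p = 0.00143). Lpin2 ran from 22.9 to 81.9 FPKM in siLuc (median 57.7) and stood at 74.5, 129, 165, 204 and 186 in siYap, again with only siYap 1 inside the siLuc range. Its log2 fold change was 1.47 ± 0.27 (2.77-fold; adjusted p = 0.00119). Lpin3, the least abundant lipin per length, went the other way. It ran from 2.87 to 4.55 FPKM in siLuc (median 3.60) and stood at 1.49, 3.11, 1.95, 1.28 and 3.14 in siYap, where 3 of 5 libraries lay below the siLuc range. For Lpin3 the log2 fold change was -0.75 ± 0.23 (1.68-fold lower; adjusted p = 0.0210), and without siYap 3 the adjusted p was 0.0589. Per length, Lpin1 exceeded Lpin3 by 1.21 to 6.42 times in siLuc and by 10.1 to 31.5 times in siYap.

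The last step, from diacylglycerol to triglyceride, is made by 2 unrelated enzymes, and only 1 of their genes rose. Dgat2 ran from 74.6 to 115 FPKM in siLuc (median 92.9) and stood at 113, 148, 176, 192 and 175 in siYap, with siYap 1 alone inside the siLuc range. Dgat2 rose by 0.77 ± 0.14 on the log2 scale (1.71-fold; adjusted p = 0.000891). Dgat1 was 6.54 ± 0.728 and 6.57 ± 1.53 FPKM (adjusted p = 0.919). The ratio of Dgat2 to Dgat1 FPKM was 10.6 to 18.5 in siLuc and 19.1 to 32.5 in siYap.

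Mogat2 makes diacylglycerol from monoacylglycerol, a route best known from the gut. It ran from 1.20 to 14.1 FPKM in siLuc (median 3.17) and stood at 0.414, 0.604, 1.28, 1.55 and 0.218 in siYap. Only siYap 3 and siYap 4 reached into the siLuc range, and siLuc 1, at 14.1, stood apart from its group. For Mogat2 the log2 fold change was -2.46 ± 0.65 (5.51-fold lower; adjusted p = 0.0121), and without siLuc 1 it was -1.79 (adjusted p = 0.00691). Agpat2, which adds the second fatty acid to the backbone, ran from 62.5 to 113 FPKM in siLuc (median 77.7) and stood at 35.8, 57.1, 44.9, 55.6 and 59.2 in siYap. Every siYap library was below every siLuc library, and the log2 fold change was -0.62 ± 0.15 (1.54-fold lower; adjusted p = 0.00623). Without siYap 1 and siYap 3 the adjusted p was 0.0621 for Mogat2 and 0.0579 for Agpat2. Gpam, which adds the first fatty acid, was 75.9 ± 13.2 and 101 ± 27.7 FPKM and did not pass the test (adjusted p = 0.0801), except without siYap 1 (adjusted p = 0.0164). Mogat1 had a mean below 1 FPKM in both groups, with 4.75 in siLuc 6 and at most 1.17 elsewhere (adjusted p = 0.553).

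Among 16 further acyltransferases, acyl-CoA synthetases and phosphatidate enzymes, 4 rose, 2 fell and 10 did not pass the test. The shares that rose and fell were 25% and 12.5%, against 16.0% and 14.8% of all genes tested. Ppap2b, a membrane lipid phosphate phosphatase, rose from 13.8 ± 2.17 to 41.1 ± 12.2 FPKM (adjusted p = 2.75e-05) and Ppap2c, of the same family, fell from 17.1 ± 4.22 to 8.80 ± 1.71 (adjusted p = 0.00507). Acsl1, which activates long-chain fatty acids, rose from 66.2 ± 14.1 to 166 ± 60.3 FPKM (adjusted p = 0.000507). Agpat6, which encodes an enzyme that acylates glycerol phosphate, rose from 21.7 ± 2.04 to 36.2 ± 7.80 FPKM (adjusted p = 0.000556). Gpd1, which makes that glycerol phosphate, fell from 93.1 ± 22.7 to 55.4 ± 21.8 FPKM (adjusted p = 0.0152).

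All 3 of the lipases that remove the fatty acids of triglyceride in sequence rose, and no lipolysis gene fell. Of the 6 lipolysis genes 50% thus rose, against 16.0% of all genes tested, and 0% fell, against 14.8%. Only the rise of Pnpla2 held in all 24 alternative fits, while Lipe kept its call in 22 and Mgll in 20. Pnpla2 encodes adipose triglyceride lipase, which takes the first fatty acid. It ran from 1.66 to 3.49 FPKM in siLuc (median 2.84) and stood at 6.35, 5.73, 12.8, 4.96 and 7.86 in siYap, with no overlap between the groups. Pnpla2 rose by 1.47 ± 0.22 on the log2 scale (2.77-fold; adjusted p = 0.000238), and it was 1.58, 1.34 and 1.77 within the libraries of digits 6, 7 and 8. Lipe, the hormone-sensitive lipase that acts on diacylglycerol, ran from 0.877 to 1.67 FPKM in siLuc (median 1.15) and stood at 1.98, 1.97, 2.30, 1.66 and 2.31 in siYap. Only siYap 4 lay within the siLuc range, and the log2 fold change was 0.72 ± 0.19 (1.64-fold; adjusted p = 0.00979). Without siYap 1 and siYap 3 it was 0.63 (adjusted p = 0.0644). Mgll, the lipase of monoacylglycerol, ran from 3.35 to 8.40 FPKM in siLuc (median 6.86) and stood at 4.68, 9.98, 18.9, 17.2 and 13.5 in siYap. All but siYap 1 lay above the siLuc range. The log2 fold change of Mgll was 0.94 ± 0.29 (1.92-fold; adjusted p = 0.0225). It was -0.06 within digit 6, which holds siYap 1, and the adjusted p was 0.0828 without siYap 3 and 0.0645 without siYap 4.

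Of the lipolysis genes, neither the activator nor the inhibitor of Pnpla2 passed the test over all libraries. Abhd5, its activator, was 13.8 ± 1.94 FPKM in siLuc and 10.9 ± 2.21 in siYap (adjusted p = 0.0946, and 0.0408 without siYap 4). G0s2, its inhibitor, was 47.4 ± 21.3 and 51.2 ± 30.1 FPKM (adjusted p = 0.970), and in siYap it ran from 16.9 in siYap 1 to 99.4 in siYap 5. The FPKM ratio of G0s2 to Pnpla2 was 8.31 to 37.3 in siLuc (median 14.6) and 2.66 to 12.6 in siYap (median 7.45). Pnpla3, a droplet protein of the same family as Pnpla2, was 1.10 ± 0.367 and 0.796 ± 0.396 FPKM (adjusted p = 0.301). Among 18 other genes of lipid hydrolysis, export and uptake, 7 rose and 0 fell. These shares were 38.9% and 0%, against 16.0% and 14.8% of all genes tested. Vldlr, a lipoprotein receptor, ran from 0.441 to 4.52 FPKM in siLuc (median 1.12) and stood at 3.16, 11.1, 37.8, 61.5 and 35.4 in siYap, with a log2 fold change of 4.27 ± 0.65 (adjusted p = 0.000365). Lipc, hepatic lipase, rose from 12.3 ± 6.70 to 48.9 ± 19.3 FPKM (adjusted p = 0.00192), and Ces1d, a carboxylesterase that hydrolyses stored triglyceride, from 108 ± 42.2 to 350 ± 216 (adjusted p = 0.00385).

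Mttp, the 1 export gene, ran from 29.6 to 48.9 FPKM in siLuc (median 35.7) and stood at 50.5, 68.2, 79.3, 71.9 and 87.2 in siYap. The groups did not overlap. Its log2 fold change was 0.95 ± 0.15 (1.94-fold; adjusted p = 0.000441), and it was 0.66, 1.04 and 1.35 within digits 6, 7 and 8.

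Of the 12 storage genes, 10 were tested, of which 4 rose and 2 fell, with a median log2 fold change of 0.51. Those that rose made up 40% of the genes tested and those that fell 20%, against 16.0% and 14.8% of all genes. The perilipins did not move as 1 family. Plin4, a perilipin that coats small droplets in fat cells and muscle, ran from 0.615 to 1.88 FPKM in siLuc (median 1.35) and stood at 2.21, 4.97, 11.8, 7.20 and 24.7 in siYap. All siYap libraries were above all siLuc libraries, and siYap 5 was the highest. Plin4 rose by 3.08 ± 0.40 on the log2 scale (8.47-fold; adjusted p = 0.000115), and without siYap 5 it was 2.48 (adjusted p = 0.000105). Plin5, which couples droplets to mitochondria, ran from 14.2 to 35.7 FPKM in siLuc (median 19.7) and stood at 11.4, 40.0, 34.2, 33.7 and 91.0 in siYap. The siYap 1 library was below all siLuc libraries while siYap 5 and siYap 2 were above them. The log2 fold change of Plin5 was 0.97 ± 0.34 (1.96-fold; adjusted p = 0.0414). This call was lost in 9 of the 13 fits that each left out 1 library (siLuc 2 to 7 and siYap 2, 3 and 5, adjusted p 0.0550 to 0.185), and the fold change was -0.06 within digit 6.

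Plin3, a perilipin found both free in the cytosol and on nascent droplets, ran from 34.7 to 57.3 FPKM in siLuc (median 45.7) and stood at 21.3, 47.1, 29.5, 34.4 and 27.4 in siYap. Only siYap 2 lay within the siLuc range. The log2 fold change was -0.50 ± 0.17 (1.42-fold lower; adjusted p = 0.0383), and the adjusted p was 0.0527 to 0.0967 without siLuc 1, 3, 5 or 6 or siYap 1, 3, 4 or 5. Plin2, the perilipin whose protein level follows the droplet content of hepatocytes, ran from 95.4 to 192 FPKM in siLuc (median 101) and stood at 58.8, 115, 105, 176 and 235 in siYap, on both sides of the siLuc range (adjusted p = 0.758). Plin1, the perilipin of fat cells, had 0 fragments in all 13 libraries, which at the depth of these libraries allows up to 0.0810 to 0.127 CPM. Adipoq, Lep, Retn, Adig and Cfd, defining markers of fat cells, had at most 5 fragments in any library. The whole list of 7 fat cell markers summed to 33.6 to 139 FPKM in siLuc and 24.0 to 63.9 in siYap. Most of each sum was Fabp4, at 31.7 to 138 FPKM in siLuc and 22.0 to 63.4 in siYap. Neither Fabp4 nor Slc2a4, the 2 tested, passed.

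Per length, the order Plin2, Plin3, Plin5, Plin4 held in all 8 siLuc libraries. In siYap, Plin2 stayed highest and Plin4 lowest in all 5, while the FPKM ratio of Plin5 to Plin3 was 0.536, 0.849, 1.16, 0.979 and 3.32, above 1 in 2 of 5 libraries against 0 of 8 in siLuc. The ratio of Plin5 to Plin4 was 11.4 to 37.8 in siLuc and 2.91 to 8.04 in siYap.

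Cideb, which serves the lipid loading of lipoproteins in liver, ran from 15.4 to 28.6 FPKM in siLuc (median 24.1) and stood at 26.5, 27.7, 62.8, 29.6 and 34.7 in siYap. It rose by a log2 fold change of 0.65 ± 0.21 (1.57-fold; adjusted p = 0.0266), with siYap 1 and siYap 2 inside the siLuc range, and without siYap 3 the adjusted p was 0.115. Cidec, the related protein of large droplets, was 1.99 ± 1.86 and 1.13 ± 0.917 FPKM (adjusted p = 0.322). Cidea reached at most 0.298 FPKM and 12 fragments in any library and was not tested. Fitm1 and Fitm2 encode proteins of the endoplasmic reticulum that serve droplet budding. Fitm1 ran from 0.893 to 9.27 FPKM in siLuc and stood at 2.07, 0.191, 15.1, 26.2 and 12.4 in siYap (adjusted p = 0.265), so that 3 siYap libraries lay above the siLuc range and 1 below it. Fitm2 was 9.19 ± 1.19 and 11.8 ± 4.46 FPKM (adjusted p = 0.149, and 0.0328 without siYap 1).

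Hsd17b13 and Hsd17b11 encode related dehydrogenases that sit on hepatocyte droplets, and they moved in opposite directions. Hsd17b13 stood at 1006, 294, 450, 458, 477, 467, 461 and 429 FPKM in siLuc 1 to 8 and at 155, 17.9, 18.3, 36.5 and 77.3 in siYap 1 to 5. No siYap library reached the lowest siLuc library, siLuc 1 stood far above its group, and siYap 1 was the highest of siYap. The log2 fold change of Hsd17b13 was -3.07 ± 0.53 (8.39-fold lower; adjusted p = 0.000870), and without siYap 1 it was -3.73 (adjusted p = 0.000103). Hsd17b11 ran from 16.3 to 54.0 FPKM in siLuc (median 40.4) and stood at 43.3, 45.0, 59.3, 135 and 93.1 in siYap, with siYap 1 and siYap 2 inside the siLuc range. Its log2 fold change was 1.07 ± 0.30 (adjusted p = 0.0151), and without siYap 4 the adjusted p was 0.0576. The FPKM ratio of Hsd17b13 to Hsd17b11 was 10.7 to 18.6 in siLuc and 3.58, 0.397, 0.309, 0.270 and 0.831 in siYap, so Hsd17b11 was the more abundant of the pair in all siYap libraries but siYap 1.

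**Figure D3:**
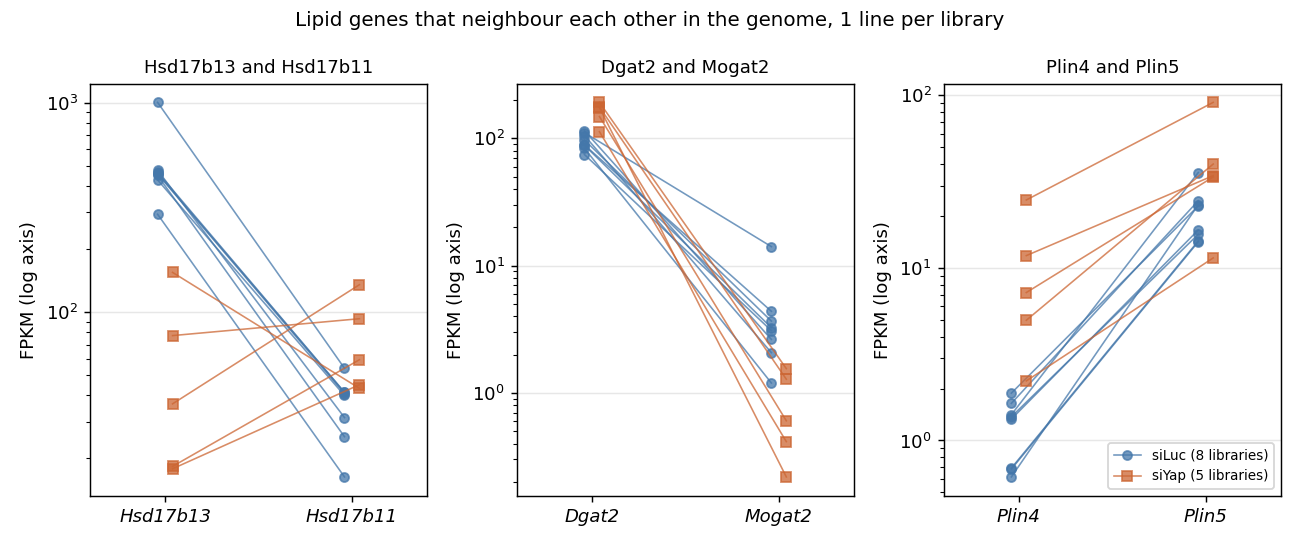
FPKM (log axis) of 3 pairs of neighbouring genes, with 1 line per library joining the pair's values, for 8 siLuc and 5 siYap libraries. The lines of Hsd17b13 and Hsd17b11 fall in all siLuc libraries and rise in all siYap libraries but siYap 1, those of Dgat2 and Mogat2 are steeper in siYap, and Plin4 is higher in every siYap library than in any siLuc library.

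These opposite changes came from next-door genes. In build mm10, with positions from GENCODE M21, Hsd17b13 (chr5:103955440-103977410) and Hsd17b11 (chr5:103989762-104021919) lie on the same minus strand, 12351 bases apart. Dgat2 (chr7:99153658-99182719), which rose, and Mogat2 (chr7:99219084-99238619), which fell, also share the minus strand, 36364 bases apart. Plin4 (chr17:56100591-56109803) and Plin5 (chr17:56111601-56117596), both higher in siYap, share the minus strand with 1797 bases between them. The bases before the RefSeq start of the first and last pair, and of Fasn and Acacb, the lipogenesis genes that rose, are shown to set the changes beside the sequence (RefSeq, build mm10, 5′ to 3′ on the gene's strand). Of each window of 250 bases, those that GENCODE draws as exon of the gene are left off at the start's end (22 for Hsd17b13, 123 for Hsd17b11, 21 for Plin4, 48 for Plin5, 0 for Fasn and 9 for Acacb). Capitals mark matches to CCAAT, the box bound by NF-Y, read as CCAAT or ATTGG. The core that TEAD factors bind together with Yap, GGAATG, was searched too and is in none of the printed stretches. Dgat2 and Mogat2 are among the 4 genes, with Dgat1 and Cidea, for which no promoter is shown or searched.
Hsd17b13, chr5:103977411-103977638, minus strand: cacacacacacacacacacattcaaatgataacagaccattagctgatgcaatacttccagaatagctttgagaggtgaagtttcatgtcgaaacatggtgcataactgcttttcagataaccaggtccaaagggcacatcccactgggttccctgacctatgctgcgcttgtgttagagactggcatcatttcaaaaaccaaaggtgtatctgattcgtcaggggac
Hsd17b11, chr5:104021920-104022046, minus strand: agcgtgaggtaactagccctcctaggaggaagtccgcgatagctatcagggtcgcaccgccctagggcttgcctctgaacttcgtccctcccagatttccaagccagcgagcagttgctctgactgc
Plin4, chr17:56109804-56110032, minus strand: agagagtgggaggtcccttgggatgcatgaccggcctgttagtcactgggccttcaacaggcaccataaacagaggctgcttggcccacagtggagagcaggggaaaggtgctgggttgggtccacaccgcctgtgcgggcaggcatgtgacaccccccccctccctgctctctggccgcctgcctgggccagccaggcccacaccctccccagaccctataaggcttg
Plin5, chr17:56117597-56117798, minus strand: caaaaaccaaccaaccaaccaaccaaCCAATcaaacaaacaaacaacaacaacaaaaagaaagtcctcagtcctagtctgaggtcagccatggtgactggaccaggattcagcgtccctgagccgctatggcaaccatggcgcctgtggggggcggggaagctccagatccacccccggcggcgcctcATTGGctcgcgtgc
Fasn, chr11:120824548-120824797, minus strand: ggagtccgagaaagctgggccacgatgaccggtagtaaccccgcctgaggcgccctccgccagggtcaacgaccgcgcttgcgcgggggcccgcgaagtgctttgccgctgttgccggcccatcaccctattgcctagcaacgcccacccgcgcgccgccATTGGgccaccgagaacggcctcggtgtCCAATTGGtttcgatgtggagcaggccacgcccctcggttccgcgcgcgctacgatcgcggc
Acacb, chr5:114165268-114165508, plus strand: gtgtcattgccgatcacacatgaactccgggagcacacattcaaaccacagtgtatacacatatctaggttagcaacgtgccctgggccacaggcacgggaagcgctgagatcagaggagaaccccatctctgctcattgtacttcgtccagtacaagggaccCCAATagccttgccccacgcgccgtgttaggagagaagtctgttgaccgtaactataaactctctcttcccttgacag

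The Hsd17b11 window held a GGAATG that begins 76 bases and a CCAAT that begins 115 bases before the start, both in the stretch that GENCODE draws as exon, while the window of its neighbour Hsd17b13 held no match to any of the 5 motifs searched. Fasn held 3 matches to the CCAAT box, 90, 62 and 59 bases before the start, of which the last pair overlap. Acacb held 1 such match (87 bases), Plin4 held 1 (18 bases, in the GENCODE exon) and Plin5 held 2 (224 and 62 bases). The Acacb window lies inside the gene as GENCODE draws it (chr5:114146535-114250761), at a start within it.

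Over the 32 promoters, searched on both strands, CCAAT was found in 12 (5 of the 12 that rose, 1 of the 4 that fell and 6 of the 15 not called that had a sequence), against 33.8% of the 32851 RefSeq promoters. The E-box CACGTG, bound by the factors that Srebf1, Mlxipl and Usf1 encode among others, was found in 4 (Lipe, Lpin2, Mgll and Mlxipl), against 6.02%. GGAATG was found in 4 (Abhd5, Cidec, Hsd17b11 and Lpin3), against 12.6%. The sterol element TCACNCCAC and the direct repeat bound by PPAR with RXR were found in 0 of the 32, against 1.05% and 0.0335% of all promoters. Letters this rare would seldom be met in 32 promoters, so the 0 does not show that these genes lack such sites. A match describes the letters in this window and is no measure of binding.

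The siYap libraries did not share 1 profile. Of the 34 genes tested, siYap 1 was the lowest of the 5 siYap libraries for 22, against 28.0% of all genes tested, and for 9 of the 13 that rose, against 33.4% of all genes that rose. The highest was siYap 3 for 12 of the 34 and siYap 5 for 11, against 26.6% and 15.5% of all genes. Among the 13 that rose, siYap 3 was highest for 6, against 51.7% of all genes that rose, and siYap 5 for 4, against 8.46%. In siYap 3 the lipogenesis genes Fasn and Acacb stood highest, in siYap 5 the perilipins Plin2, Plin4 and Plin5, and in siYap 4 Lpin2, Dgat2 and Hsd17b11. The library with the lowest values for these genes, siYap 1, also had the fewest fragments, the lowest hepatocyte and the highest stellate and fibroblast marker sums, and the part of these in the order was not tested.

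**Figure D4:**
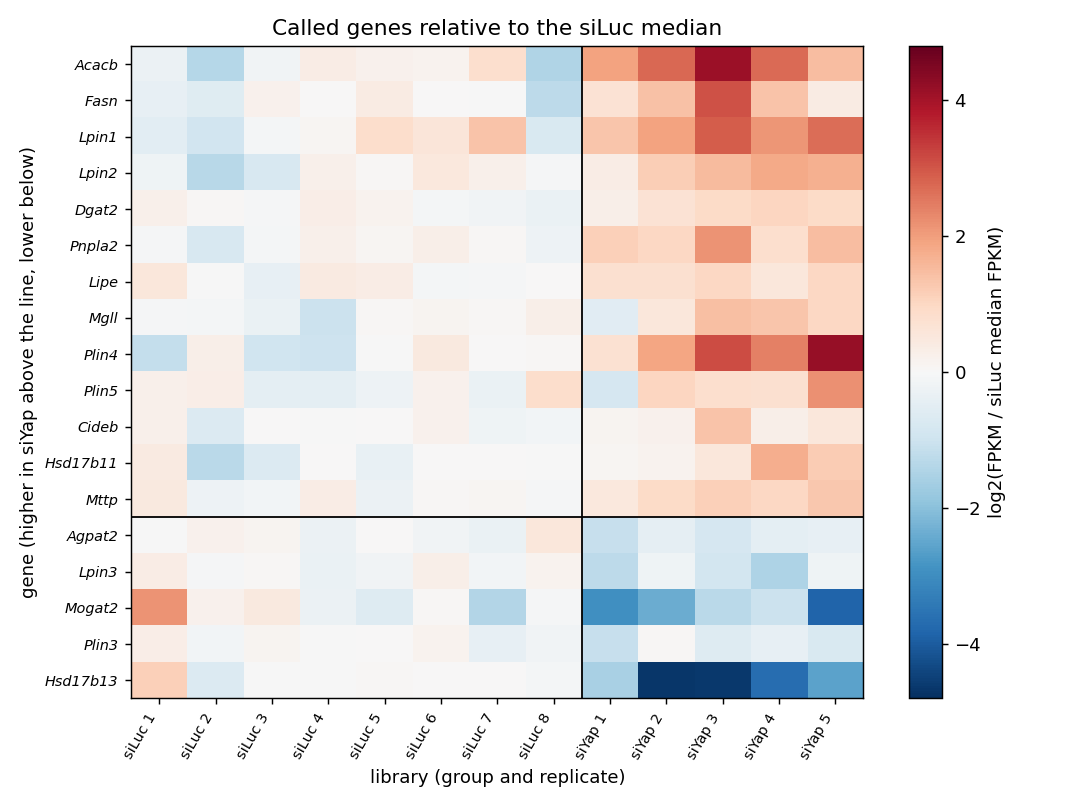
Log2 of each library's FPKM over the siLuc median (colour, red higher and blue lower) for the 18 genes called, 13 higher above the line and 5 lower below it, with 1 column for each of the 13 libraries. The siYap columns are red for Acacb, Lpin1 and Plin4 and blue for Hsd17b13 and Mogat2, and siYap 1 has the lowest siYap value for 9 of the 13 genes above the line.

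Among the called genes, annotated genes on the opposite strand overlap Agpat2, Lpin3, Mogat2, Lipe, Mgll, Cideb and Mttp. The overlap takes in the full length of Agpat2 (11361 bases, a protein-coding gene) and of Lipe (19184 bases). A long noncoding gene on the same strand spans Lpin2, and annotated genes on the same strand overlap parts of Mgll (3173, 2889 and 3773 bases). Genes that were not called have such overlaps too, among them Acaca (19126 bases), Gpam (18314 bases) and G0s2. The protein-coding gene Lamb3 covers the full length of G0s2 (1057 bases) on the opposite strand, which also limits the ratio of G0s2 to Pnpla2. Whether counting used strand is not given in the sources used here, so reads from the overlapping stretches cannot be told apart. The overlaps of Plin4 and Acacb are short, 17 and 750 bases.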

How the data were processed

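Tumour RNA of 13 libraries (8 siLuc, 5 siYap) was sequenced after removal of ribosomal RNA (ScriptSeq Complete Gold Kit, per the labels' protocols). The submitters' processing notes name build mm10 and, with no order or role, Cuffdiff 2.1.1, Cufflinks, TopHat2 2.0.8 and Trimmomatic 0.30. Sources used here give no gene annotation, strand setting or treatment of reads with several matches.

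For every library the authors deposited a Cuffdiff table (23361 gene symbols) of raw fragments, which are estimated counts, and of FPKM scaled by the authors, per the file headers. The replicate index held in it ran from 0 to 7 in siLuc but was 0, 1, 5, 6 and 7 in siYap. Whether other siYap libraries held the missing indices is not given in the sources used here. Between 97.6% and 98.0% of the fragment values lay within 1e-06 of a whole number, and all were rounded. A mark of too great depth was carried by 3 genes listed at 0 (among them Apob, the lipoprotein protein that Mttp loads), which were left out. The FPKM table of the whole series was not used here.

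Rounded counts were tested with edgeR 4.0.16 in R 4.3.3 (quasi-likelihood F test, robust, TMM scaling, default filter by group, 15132 genes kept), comparing siYap with siLuc, with Benjamini-Hochberg adjustment over all of them and calls at an adjusted p under 0.05. Fold changes and adjusted p are from this fit unless another is named. Levels are FPKM, mean ± SD over libraries (n = 8 and n = 5). The fit was also run on simulated counts, drawn for independent libraries with the same spread setting for every gene. That run does not cover libraries that share a number in their file names, or genes with a wider spread. Counting intervals and floors (3 counts) cover counting error only.

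The members and lists were chosen with earlier results of these data known. All members with a mean of at least 1 FPKM are given with values, the called ones by library, and from each further list the called genes with the 3 smallest p in each direction. Motifs were searched in the 250 bases before the RefSeq start, on both strands. File names carry a number and a code digit whose meaning the labels do not give. Libraries share some numbers (5 numbers in siLuc, 3 in siYap), so counts summed per number and fits by digit were among the alternatives, with other scalings, filters, tools (DESeq2 1.42.0, limma 3.58.1 on log2(FPKM + 1) and log2(FPKM + 0.1)), thresholds and each library left out.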

Additional observations from a re-analysis of the deposited data

Results flagged for a closer look

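Of 70 sets of values (1 gene in 1 group each), 7 held a library that stood apart from its group by Dixon's criterion on unlogged FPKM. Chance meets this criterion in about 1 in 20 sets only where values are normally distributed. That was not tested here, and all 7 stood apart on the high side, so the 7 are a description. In siYap 3, 4 genes stood apart above the rest of siYap: Acacb at 16.5 FPKM (next 6.40), Fasn at 148 (next 47.6), Mlxipl at 38.3 (next 16.5) and Cideb at 62.8 (next 34.7). That library was also the highest of siYap for 51.7% of all genes that rose. It held the most Rn45s reads of all libraries (1882 CPM), and the part of this in the 4 genes was not tested. In siLuc 1, Hsd17b13 reached 1006 FPKM (next 477) and Mogat2 14.1 (next 4.38), the 2 genes with the deepest falls in siYap. Mogat1 reached 4.75 FPKM in siLuc 6 (next 0.434).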

How the results depend on the processing

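Of the 18 calls among the lipid genes, 9 held in all 24 alternative fits (Acacb, Fasn, Lpin1, Lpin2, Dgat2, Pnpla2, Plin4, Hsd17b13, Mttp). Leaving out 1 library gave 10 to 16 higher and 3 to 5 lower calls among them, 13 to 18 and 3 to 5 among the 53 further genes, and 1729 to 2397 and 1596 to 2236 among all genes. Only 3 of the 5 falls passed without siYap 3. With the replicate block, 9 lipid genes were higher and 3 lower (all genes 1199 and 1126). Whether the numbers of the labels pair the samples was not settled. Same-numbered libraries correlated by -0.12 to 0.13, and 2 of the 5 numbers had each other as best match. No libraries known to be paired were at hand to compare these values with. Without siYap 1 and 3, 1 lipid gene was lower (all genes 1512 higher, 1472 lower). At an adjusted p under 0.01, 2 were lower, 9 further genes were higher, and 1264 and 1098 of all genes were called. With a log2 fold change of at least 1 also asked for, 7 lipid genes were higher and 2 lower, 6 further genes higher and 0 lower, and 1053 and 939 of all genes. DESeq2 called 5 further genes lower. Counts summed per file-name number kept 15 of the 18 calls and lost those of Lpin3, Mgll and Plin5 (adjusted p = 0.0751, 0.0673 and 0.0793). Libraries siYap 1 and 2 share a number, as do siYap 3 and 4, siLuc 1 and 2, and siLuc 5, 6 and 7. The block ended the calls of Lipe, Mgll, Plin5, Cideb, Lpin3 and Plin3 (adjusted p = 0.125, 0.159, 0.155, 0.0803, 0.0798 and 0.0942).

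Signs turned for genes that did not pass: Acly was -0.014 with limma at both pseudocounts, -0.0019 summed per number, -0.049 without siYap 1 and 3 and -0.083 to 0.099 with 1 library left out. Srebf1 was -0.020 (pseudocount 1) and -0.023 (0.1) with limma, -0.039 with the block, -0.11 without siYap 1 and 3 and -0.14 to 0.25 with 1 left out. Dgat1 was -0.011 and -0.014 with limma, -0.0086 with the block, and -0.11 to 0.091. G0s2 was -0.020 with the block, -0.069 with the digit as a term, and -0.34 to 0.37. Plin2 was -0.12 to 0.37, Mogat1 0.92 with DESeq2 and 0.33 with the block, and Cidec 0.10 with the block. Among called genes, Mgll and Plin5 were both -0.059 within digit 6. The causes were not tested. Other scalings moved the median of all genes by less than 0.1. Plin1, with 0 fragments, and Cidea, with at most 12, were too low for a test.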
